A study of Mus musculus with 32 samples.

Results

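The collagen genes of the mouse, taken as every gene whose RefSeq symbol has the form Col, a number, a and a number, were followed across sympathetic ganglia and neuroblast sphere cultures. The RefSeq gene table lists 44 such genes. Of these, 43 were represented on the array, by 63 probes among the probes of 20660 named genes, and Col12a1 had no probe. The study profiled mice that carry human MYCN under the tyrosine hydroxylase promoter, which is active in sympathetic neuroblasts and neurons, so that the transgene marks the catecholaminergic lineage and not the supporting cells. Passaged spheres came from 4 cultures, passaged 5 times, of TH-MYCN hemizygous mice aged 3 weeks, with 2 arrays per culture. Primary spheres came from 8 cultures of 3-week-old TH-MYCN hemizygotes, grown for 8 days. The superior mesenteric ganglion (SMG), a prevertebral sympathetic ganglion, was taken whole from 8 TH-MYCN hemizygotes and from 8 wild-type mice, both 3 weeks old. All mice had the 129+Ter/SvJcl background, and each mouse or culture was a separate biological replicate.

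Collagens are trimers of alpha chains wound into a triple helix. Fibrillar collagens (types I, II, III, V and XI among them) assemble into the fibres of connective tissue, type IV forms the network of basement membranes, type VI makes beaded filaments, and fibril-associated collagens (FACITs) sit on the surface of fibrils. In a ganglion, fibroblasts make most fibrillar collagen, while Schwann cells and satellite glia lie on basement membranes rich in type IV. Neurons and neuroblasts are surrounded by this matrix and are not known as its main source.

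The 28 samples were run on 32 one-colour arrays on 4 slides. A level is the log2 of a probe's processed signal over the 75th percentile of all non-control spots on its array, so 0 stands for that percentile. That percentile was 322.7 to 538.9 intensity units on passaged sphere arrays, 464.1 to 563.8 on primary sphere arrays, 840.2 to 1357.8 on TH-MYCN SMG arrays and 522.7 to 988.6 on wild-type SMG arrays. The scanner software called 49.02 to 53.89% of spots well above background on passaged sphere arrays, 57.01 to 59.73% on primary sphere arrays, 59.05 to 64.07% on TH-MYCN SMG arrays and 60.35 to 65.7% on wild-type SMG arrays. Sympathetic neuron markers, 10 genes in all, were each well above background in every sample of all 4 groups. Both kinds of ganglion were on each of slides 1 and 2, and both kinds of sphere on each of slides 3 and 4. No slide held both a ganglion and a sphere, so slide and group cannot be told apart in comparisons of spheres with ganglia.

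The number of collagen genes above background was lowest in passaged spheres, whose arrays also needed a higher relative signal to pass. The lowest signal well above background was -5.05 to -4.11 on passaged sphere arrays and -5.56 to -5.22 on primary sphere arrays. Col11a2, which differed by only -0.04 between them, was detected in 1 passaged and 8 primary cultures. A lower count is therefore not by itself lower expression. Of the 43 genes, 9 were well above background in every passaged culture, 9 in some and 25 in none, where both arrays of a culture had to pass, a stricter rule than for groups with 1 array per sample. Where either array sufficed, 13 were above background in every passaged culture, 11 in some and 19 in none. In primary spheres 20 were detected in every culture, 15 in some and 8 in none. In TH-MYCN SMG 33 were detected in every sample and 4 in none, against 32 and 4 in wild-type SMG. Col9a3 and Col19a1 were well above background in 0 of the 28 samples, Col17a1 in 1 and Col6a6 in 2. The other 39 genes passed the limit of 4 samples, as did 16083 of all named genes. Since the tissues decided most of these passes, a count of the 39 describes detection and is not evidence of a difference.

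**Figure D1:**
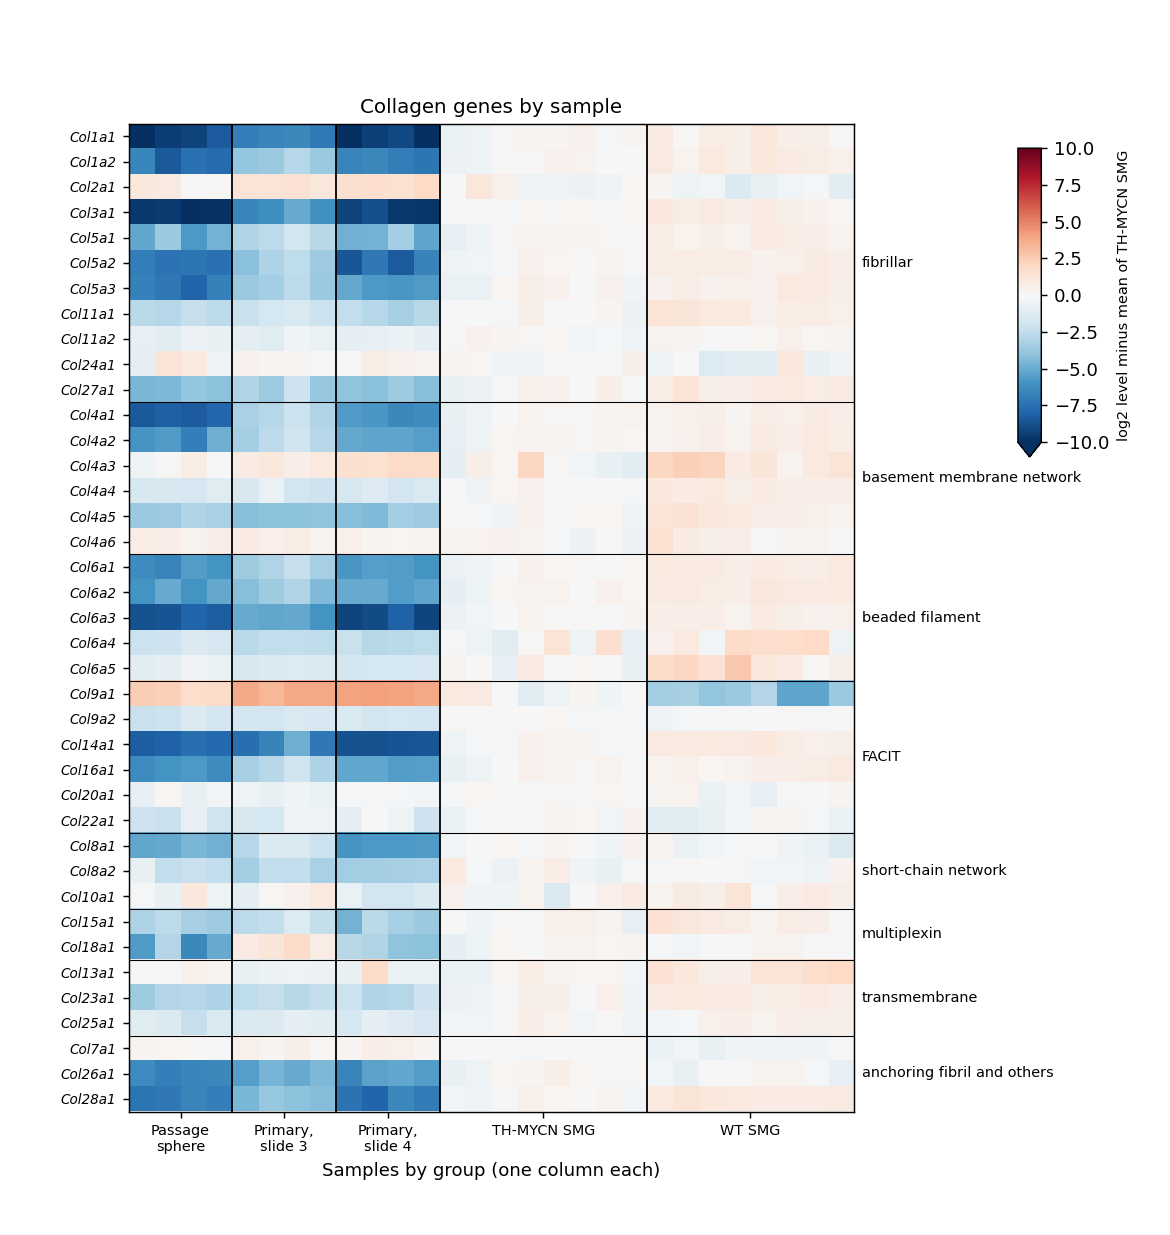
Levels of the 39 collagen genes that were well above background in at least 4 samples, as log2 level minus the gene's mean in TH-MYCN SMG, 1 column per sample and 1 row per gene, grouped by collagen class. Most rows are blue in the passaged and primary spheres, the Col9a1 row is red in spheres and blue in wild-type SMG, and slide 3 primary spheres are paler than those of slide 4.

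Col4a1 and Col4a2 lie head to head in the mouse genome and are transcribed away from each other, as are Col4a5 and Col4a6. In the results on spheres, Col4a1 and Col4a2 are compared within samples, and Col4a5 and Col4a6 are set side by side by group. The promoter windows of both pairs are shown for that reason. Each window runs from 250 bases before to 50 bases after the annotated start, from RefSeq on GRCm38.p6, read 5′ to 3′ on the gene's strand. Capitals mark matches to the letters CCAAT or GGGCGG on either strand (ATTGG and CCGCCC on the other), and matches of the motifs did not overlap.
Col4a1, - strand, chr8:11312777-11313076: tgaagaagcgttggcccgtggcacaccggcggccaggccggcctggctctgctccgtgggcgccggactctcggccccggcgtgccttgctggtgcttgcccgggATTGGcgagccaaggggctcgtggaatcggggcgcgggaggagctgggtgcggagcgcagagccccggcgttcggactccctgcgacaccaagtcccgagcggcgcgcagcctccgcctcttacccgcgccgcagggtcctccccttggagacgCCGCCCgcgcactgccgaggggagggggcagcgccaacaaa
Col4a2, + strand, chr8:11312555-11312854: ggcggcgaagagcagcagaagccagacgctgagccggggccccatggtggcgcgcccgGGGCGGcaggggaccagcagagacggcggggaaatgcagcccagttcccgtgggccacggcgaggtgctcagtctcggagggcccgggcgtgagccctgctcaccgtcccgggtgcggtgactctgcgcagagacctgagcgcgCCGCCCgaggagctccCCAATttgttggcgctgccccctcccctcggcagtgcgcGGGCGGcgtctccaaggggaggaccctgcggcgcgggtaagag
Col4a5, + strand, chrX:141475169-141475468: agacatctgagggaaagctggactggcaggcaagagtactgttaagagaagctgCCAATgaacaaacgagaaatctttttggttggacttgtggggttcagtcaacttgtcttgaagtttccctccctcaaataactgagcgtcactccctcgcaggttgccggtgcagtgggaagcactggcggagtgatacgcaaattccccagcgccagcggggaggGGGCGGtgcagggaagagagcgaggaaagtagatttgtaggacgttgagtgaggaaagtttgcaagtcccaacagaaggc
Col4a6, - strand, chrX:141474027-141474326: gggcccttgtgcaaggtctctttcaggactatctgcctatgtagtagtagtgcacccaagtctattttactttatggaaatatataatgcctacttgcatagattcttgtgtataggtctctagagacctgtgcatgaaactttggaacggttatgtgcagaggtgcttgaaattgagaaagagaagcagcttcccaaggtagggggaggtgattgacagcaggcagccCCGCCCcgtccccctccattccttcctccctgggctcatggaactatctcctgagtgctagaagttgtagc
The Col4a1 and Col4a2 windows share 78 bases, and the Col4a5 and Col4a6 windows lie 842 bases apart. The table held a window for 35 of the 44 collagen genes, 38 windows in all. The letters GGGCGG were in 60.5% of the 38 collagen windows and in 35.7% of all 32851 windows of the table. CCAAT was in 34.2% of collagen windows and 37.4% of all, and TATAAA in 13.2% of collagen windows and 13.6% of all. The letters CACGTG were in 0 of the 38 collagen windows and in 7.15% of all windows.

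The first comparison asked how collagen expression differed between the ganglion that carries the transgene and the wild-type ganglion. Most collagens were modestly lower in TH-MYCN SMG, and Col9a1 was much higher. Of 38 genes tested, 25 fell and 2 rose at an adjusted p under 0.05 (limma with Benjamini-Hochberg adjustment over all genes tested), where 43.6% of 15844 genes fell and 21.9% rose. The median difference was -0.62 on the log2 scale for the collagens and -0.22 for all genes tested. In these RNA samples of whole tissue or culture, fewer cells of a type and less RNA per cell cannot be told apart. Values did not overlap between the groups for 8 collagens, and for 21.5% of all genes.

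Fibrillar genes were lower in TH-MYCN SMG for 8 of the 10 tested. Col1a2, the second chain of type I collagen, had levels of 5.21, 5.85 and 6.22 (lowest, median and highest) in TH-MYCN SMG, against 6.13, 6.57 and 6.83 in wild-type SMG. The TH-MYCN SMG were mostly lower, with a small overlap between the groups. The fitted difference was -0.74 ± 0.15 (SE, n = 8 each, adjusted p = 0.000513), or 1.67-fold lower. Col3a1, the chain of type III collagen that forms fine reticular fibres, lay at 4.15, 4.39 and 4.57 in TH-MYCN SMG and at 4.58, 5.09 and 5.41 in wild-type SMG. Every TH-MYCN SMG was below every wild-type SMG, and the difference was -0.69 ± 0.12 (adjusted p = 9.61e-05). Col1a1 fell by 0.59 (SE 0.17, adjusted p = 0.00644), and Col5a2, a type V chain that nucleates fibrils, fell by 0.67 (SE 0.12, adjusted p = 0.000122). Col11a2 (-0.24) and Col24a1 (0.51) did not pass the test, and Col2a1 was too dim to be tested.

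All 6 type IV genes fell, Col4a6 least securely, by 0.54 (SE 0.21). Its call was lost in 9 of 28 other settings, most of them with a single sample left out. Col4a1 and Col4a2, the chains of the common basement membrane network, differed by -0.56 ± 0.15 and -0.62 ± 0.17. Col4a4, a chain of the specialised network, was at -2.49, -2.14 and -1.71 in TH-MYCN SMG against -1.59, -1.39 and -1.10 in wild-type SMG. Its groups did not overlap, and the difference was -0.76 ± 0.11 (adjusted p = 2.07e-05). Col4a3 had the lowest fitted difference of the class, -1.41 ± 0.41, but was well above background in only 1 TH-MYCN SMG and 5 wild-type SMG. Type VI collagen fell in 4 of 5 genes tested. Col6a1 was at 1.71, 2.43 and 2.73 in TH-MYCN SMG and at 2.99, 3.20 and 3.31 in wild-type SMG, with no overlap and a difference of -0.83 ± 0.12 (adjusted p = 3.64e-05). Col28a1, a collagen known from peripheral nerve glia, fell by 0.95 (SE 0.13, adjusted p = 1.4e-05), again with no overlap. Col13a1, a transmembrane collagen, was not well above background in any TH-MYCN SMG, and was at least 1.13-fold lower there. Such a bound takes, on each array of the dimmer group, the lowest signal among probes well above background or the probe's own, whichever is higher, and sets their mean against that of the brighter group. It therefore applies to the group mean and not to each sample.

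Col9a1, the first chain of the fibril-associated type IX collagen known from cartilage and the vitreous, went the other way. Its levels in TH-MYCN SMG were -3.77, -2.68 and -1.63, against -7.88, -6.34 and -5.52 in wild-type SMG. All 8 TH-MYCN SMG were above all 8 wild-type SMG, and the probe was well above background in all TH-MYCN SMG but in only 1 wild-type SMG. The fitted difference was 3.96 ± 0.37 (adjusted p = 2.29e-07), and it was 3.78 on slide 1 and 4.13 on slide 2. With most wild-type SMG at background, Col9a1 was at least 8.22-fold higher by the same bound. With another background correction (normexp), the Col9a1 difference was 1.02. A second probe for the same Col9a1 transcript stayed near background, detected in 0 TH-MYCN SMG and 4 wild-type SMG, and had a difference of -0.82 ± 0.32 (adjusted p = 0.0322). Col9a1 was the only one of 10 collagens with several usable probes whose probes were called in opposite directions. Col9a2, which encodes the partner chain of type IX, did not pass the test (0.13 ± 0.07, 95% interval -0.03 to 0.29). The third chain gene, Col9a3, was not detected.

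Col7a1, which encodes the anchoring fibrils that attach epithelial basement membranes, was the other gene that rose. It lay at -0.03, 0.07 and 0.20 in TH-MYCN SMG and at -0.68, -0.29 and -0.02 in wild-type SMG, with a slight overlap. The difference was 0.41 ± 0.09 (adjusted p = 0.000836). Col18a1, a basement membrane proteoglycan whose end fragment is endostatin, differed by 0.01 ± 0.18, with a 95% interval of -0.36 to 0.39.

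Because the median gene itself differed by -0.22, the comparison was also made relative to it. Then 16 collagens fell and 6 rose, while 58.9% of all genes were called in either direction, against 65.6% before. Col1a1, Col4a1, Col4a2, Col4a6, Col5a1, Col5a3, Col10a1, Col15a1 and Col16a1 no longer passed, and Col8a1, Col9a2, Col22a1 and Col24a1 passed as higher. Whether Col8a1, Col9a2, Col22a1 and Col24a1 are called higher thus depends on the scaling, whereas Col9a1, Col7a1, Col3a1, Col6a1, Col14a1 and Col28a1 were called in the same direction both ways. Without wild-type SMG 6, Col22a1 and Col24a1 joined the genes that rose, which made 4. With all 4 groups in one fit, where the spread of the spheres enters the error, 12 collagens fell. The share of all genes called in that fit is not given here. The fitted differences were the same, but Col3a1 (adjusted p = 0.222), Col6a1 (0.0684), Col14a1 (0.0517) and Col28a1 (0.0592) no longer passed.

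Within TH-MYCN SMG, replicate 1 was lowest for 17 of the 33 collagens detected throughout that group, and replicate 4 was highest for 14. The mean log2 level of 12 markers of Schwann cells and satellite glia was also lowest in replicate 1 (0.01) and highest in replicate 4 (0.96). Of those 12 markers, 9 fell and 1 rose between TH-MYCN and wild-type SMG, and their summed signal, relative to the 75th percentile, was 65.5 to 95.8 in TH-MYCN SMG against 133 to 155 in wild-type SMG. Fibroblast markers fell for 8 of 12 and rose for 2, with a summed signal of 134 to 181 in TH-MYCN SMG against 234 to 338 in wild-type SMG. Macrophage markers rose for 7 of 7. Over all genes tested, 43.6% fell and 21.9% rose. Endothelial markers fell for 7 of 10, smooth muscle and pericyte markers fell for 9 of 10 and rose for 1, and markers of mesothelium and epithelium fell for 3 of 5 and rose for 1. Sympathetic neuron markers fell for 6 of 10 and rose for 1. The part of these cell types in the collagen differences was not tested.

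Genes that act on collagen were counted by list, beside the 43.6% of all genes that fell and 21.9% that rose. Among genes for folding and modification of the chains, 13 of 19 fell and 2 rose. The prolyl isomerase gene Fkbp10 fell by 0.74 and the galactosyltransferase gene Colgalt2 fell by 0.68, while Colgalt1 rose by 0.30 and the prolyl 3-hydroxylase gene P3h2 rose by 1.40. Maturation and crosslinking genes fell for 9 of 12, and none rose by limma, also at an unadjusted p under 0.05. Collagen receptor genes fell for 5 of 9 and rose for 2, among them Itga1, the alpha1 integrin chain that binds type I and type IV collagen, whose difference was 4.22 ± 0.36. Of 7 genes for collagen breakdown and its inhibitors, 4 fell and 1 rose. The gelatinase gene Mmp2 fell by 1.03, and the collagenase gene Mmp13 was at least 5.43-fold higher in TH-MYCN SMG. Among 15 other basement membrane genes 11 fell and 2 rose. Lama1, the laminin chain of early embryonic basement membranes, had a difference of 5.51 ± 0.41 and was above background in 2 of 8 wild-type SMG.

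**Figure D2:**
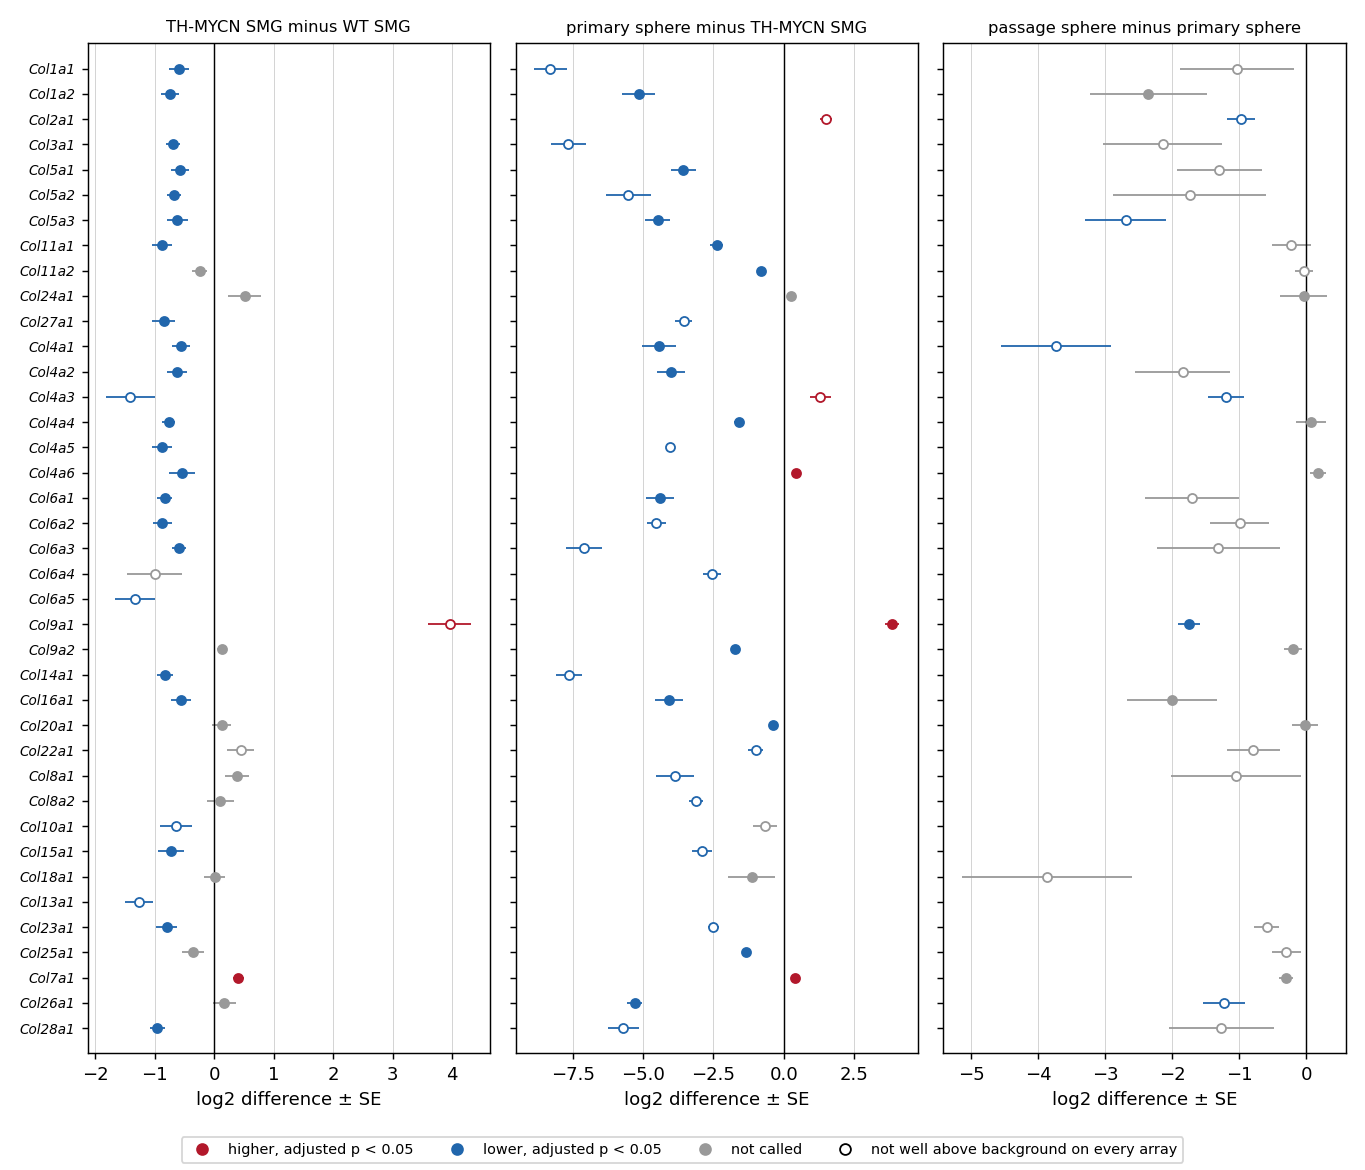
Fitted log2 differences of each collagen gene with their SE in 3 comparisons: TH-MYCN SMG minus wild-type SMG (left), primary spheres minus TH-MYCN SMG (middle) and passaged minus primary spheres (right). Red points rose, blue points fell and grey points did not pass an adjusted p of 0.05, and open points were not well above background on every array. Each panel has its own horizontal scale, and Col9a1 lies far to the right of 0 in the left and middle panels and to the left of 0 in the right one.

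The second comparison set primary spheres against the TH-MYCN ganglion. Collagen expression was far lower in the spheres, on the group mean at least 264-fold for Col1a1, and Col9a1 was again higher. The size depended on the primary cultures, with fitted differences of -6.74 for Col1a1 and -5.94 for Col3a1 in those of slide 3, where both were detected throughout, and of -9.83 and -9.37 in those of slide 4, where each was detected in 2 of 4. Of 37 genes tested, 29 fell and 5 rose, where 33% of 15649 genes fell and 50.2% rose. The median difference was -3.12 for collagens, or -2.50 with genes that have only a bound set at it, and 0.27 for all genes. The groups did not overlap for 28 collagens and for 57.9% of all genes. The median was -2.54 with the primary cultures of slide 3 alone and -3.61 with those of slide 4 alone. With normexp correction it was -0.89, with 8 collagens higher, a count given without the share of all genes called.

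Fibrillar genes fell for 9 of 11. Col1a1 lay at -6.86, -4.04 and -2.42 in primary spheres and at 3.40, 4.22 and 4.44 in TH-MYCN SMG. The groups were far apart, and the probe was well above background in 6 of 8 primary cultures. The fitted difference was -8.29 ± 0.59 (adjusted p = 1.17e-09). Col1a2 was at -1.46, 0.62 and 2.94 in primary spheres against 5.21, 5.85 and 6.22 in TH-MYCN SMG. It was detected in every sample, and its difference was smaller, -5.16 ± 0.60 (adjusted p = 5.28e-07), or 35.6-fold lower. The change in the within-sample difference of Col1a1 and Col1a2 was -3.13, with both genes detected in 6 of 8 primary cultures, and had an exact two-sided permutation p of 0.000155, the smallest that 8 against 8 samples allow, and 0.000699 after Benjamini-Hochberg adjustment over 18 such tests. Between TH-MYCN and wild-type SMG the same change was 0.15 (adjusted p = 0.118). Col3a1, above background in 6 of 8 primary cultures, fell by 7.65 (SE 0.63). Col5a2, above background in 4 of 8, was at least 27.4-fold lower on the group mean. With the cultures of slide 3 alone, where it was detected throughout, its difference was -3.35.

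Col2a1, the cartilage fibril chain, was the fibrillar gene that rose. It lay at -4.64, -4.27 and -3.74 in primary spheres and at -6.36, -5.90 and -4.59 in TH-MYCN SMG. All primary cultures had it above background, against 1 TH-MYCN SMG, and the groups overlapped at that sample. The difference was 1.504 ± 0.218 (adjusted p = 6.82e-06). Col9a1, whose protein joins type II fibrils in cartilage, was at 0.69, 1.25 and 1.501 in primary spheres and at -3.77, -2.68 and -1.63 in TH-MYCN SMG. Every primary culture exceeded every ganglion by over 2 on the log2 scale, and the difference was 3.86 ± 0.25 (adjusted p = 4.44e-10), or 14.5-fold higher. The second Col9a1 probe was well above background in fewer than 4 samples of this comparison and was not tested. The Col9a1 values in spheres thus rest on a single probe. Col9a2 moved the opposite way, at -2.60, -2.46 and -2.20 in primary spheres and -0.79, -0.72 and -0.48 in TH-MYCN SMG, a difference of -1.74 ± 0.08 (adjusted p = 2.04e-12). The other fibril-associated genes tested all fell, Col16a1 by 4.08 (SE 0.49) among them. Col14a1 was above background in 1 of 8 primary cultures and was at least 88.3-fold lower, while a second Col14a1 probe had a difference of -3.32.

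The type IV genes did not all move alike. Col4a1 was at -4.35, -2.34 and -0.06 in primary spheres against 1.40, 2.22 and 2.48 in TH-MYCN SMG, with a difference of -4.43 ± 0.59 (adjusted p = 2.71e-06). Col4a2, which shares 78 bases of its promoter window with it, lay at -3.89, -2.65 and -0.37 in primary spheres against 0.75, 1.78 and 1.96 in TH-MYCN SMG, with a difference of -3.99 ± 0.49 (adjusted p = 1.06e-06). Both genes were lower in all primary cultures, and the within-sample difference of the pair changed by -0.44 (exact two-sided permutation p = 0.00466, adjusted p = 0.0168). That difference averaged 0.41 in the cultures of slide 3 and -0.23 in those of slide 4, against 0.53 in TH-MYCN SMG, so slide 3 was the closer to the ganglia. Col4a5 was not well above background in any primary culture, at -7.55, -7.21 and -6.52, against -3.57, -3.04 and -2.66 in TH-MYCN SMG, and was at least 4.83-fold lower. Col4a6, its head-to-head partner, was detected throughout, at -2.94, -2.71 and -2.34 in primary spheres and -3.73, -3.00 and -2.71 in TH-MYCN SMG. These groups overlapped, and the Col4a6 difference was 0.45 ± 0.16 (adjusted p = 0.0164). A second Col4a6 probe, with a difference of -1.16 between TH-MYCN and wild-type SMG, was well above background in fewer than 4 samples here. It was not tested, so the Col4a6 values in spheres rest on a single probe. Col4a4 fell by 1.59 (SE 0.17), and Col4a3 passed as higher (adjusted p = 0.00387), with 4 of 8 primary cultures and 1 of 8 TH-MYCN SMG above background and a bound of at least 1.07-fold. The primary cultures with Col4a3 above background were all on slide 4. With the cultures of slide 3 alone, Col4a3 was not called in limma (0.88, adjusted p = 0.105).

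Type VI genes fell for all 4 tested. The difference was -4.39 ± 0.50 for Col6a1, detected in all primary cultures, and -4.53 ± 0.33 for Col6a2, detected in 5 of 8. Col6a3, detected in 4 of 8, was at least 79.2-fold lower, and Col6a4, detected in none, at least 1.38-fold lower. Col26a1, an extracellular collagen known from developing gonads, fell by 5.29 (SE 0.26, adjusted p = 9.68e-12), and Col28a1, detected in 4 of 8 primary cultures, was at least 33.6-fold lower. With the primary cultures of slide 3 alone, where each was detected throughout, the differences were -5.33 for Col6a3 and -4.215 for Col28a1. Col7a1 rose by 0.41 (SE 0.07, adjusted p = 5.71e-05), with the 8 primary cultures at 0.26 to 0.70 and the 8 TH-MYCN SMG at -0.03 to 0.20. Relative to the median gene, which was 0.27 higher in primary spheres, Col7a1 differed by 0.14 (adjusted p = 0.0931) and Col4a6 by 0.18 (adjusted p = 0.322). In that setting 3 collagens rose, Col9a1, Col2a1 and Col4a3, and 29 fell, with 78.2% of all genes called in either direction, against 83.2% before. Col18a1 was not called (-1.14, 95% interval -2.93 to 0.65), with primary cultures on both sides of the ganglia.

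Of the folding and modification genes, 11 of 19 fell and 6 rose, where 33% of all genes fell and 50.2% rose. Serpinh1, the collagen chaperone HSP47, fell by 4.03 (SE 0.72, adjusted p = 6.82e-05), and Fkbp10 fell by 3.52, while Colgalt1 rose by 0.93 and Ppib, a prolyl isomerase of general secretion, rose by 0.80. Crosslinking and maturation genes fell for 6 of 11 and rose for 1, with the procollagen protease gene Adamts2 at a log2 difference of -6.495. Receptor genes fell for 8 of 9 and rose for 1. Itga1 fell by 6.29 and Ddr2, a receptor kinase for fibrillar collagen, fell by 5.42. Breakdown genes and inhibitors fell for 6 of 7, and other basement membrane genes fell for 11 of 15 and rose for 1, Lama1, with a difference of 1.31 ± 0.27.

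Most markers of supporting cells were lower in primary spheres as well, where 33% of all genes fell and 50.2% rose. Fibroblast markers fell for 11 of 12, with Dcn at -12.35, Mgp at -9.55 and Lum at -9.15, and 1 rose. Their summed relative signal was 7.81 to 15.7 in primary spheres against 134 to 181 in TH-MYCN SMG, and Pdgfra and Dpt were well above background in no primary culture. Glial markers fell for 11 of 12 and rose for 1, with sums of 13.2 to 24.2 in primary spheres against 65.5 to 95.8 in TH-MYCN SMG, and Erbb3 was detected in no primary culture. Endothelial markers fell for 9 of 10 and rose for 1. Smooth muscle and pericyte markers fell for 9 of 9 and macrophage markers for 7 of 7. Markers of mesothelium and epithelium fell for 4 of 5 and rose for 1. The part of these cell types in the collagen differences was not tested.

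The third comparison set the primary cultures on slide 3 against those on slide 4. It was made because earlier results of these data already showed collagens splitting the 8 cultures by slide, so its calls describe that split and are not independent support for it. Collagens were higher in the 4 cultures of slide 3, most of all Col18a1. Of 30 genes tested, 16 rose and 2 fell, where 8.34% of 14117 genes rose and 4.49% fell. The median difference was 1.21 for collagens and 0.02 for all genes. The sets of cultures did not overlap for 19 collagens, and for 22.3% of all genes. Slide and set of cultures cannot be told apart for primary spheres. Separately, the same 4 passaged cultures were run on both slides. Of 17 collagens measurable there, 0 differed between slides by limma, though 3 were higher and 1 was lower at an unadjusted p under 0.05, with differences from -0.32 to 1.14 and a median of 0.18, and over all 13016 genes 0.161% were called. No share of all genes was counted at the unadjusted limit. Col1a1, Col3a1, Col4a1, Col5a2, Col6a3, Col8a1 and Col28a1 were not among the 17. The SD over the 4 passaged cultures reached 1.34, for Col5a1. The part of the slide in the split of primary cultures was not tested.

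Col18a1 had levels of 2.36, 2.80, 3.48 and 2.33 in primary cultures 1 to 4 on slide 3, against -1.17, -1.43, -2.43 and -2.51 in cultures 5 to 8 on slide 4. The difference was 4.63 ± 0.36 (n = 4 each, adjusted p = 0.000139), or 24.7-fold, and a second probe gave 4.79. In the passaged cultures on both slides it differed by 0.25. The slide 3 cultures were above all 8 TH-MYCN SMG, which spanned 0.63 to 1.95, and the slide 4 cultures were below them. Accordingly Col18a1 differed from TH-MYCN SMG by 1.17 in the slide 3 cultures (adjusted p = 0.00185) and by -3.46 in the slide 4 cultures (adjusted p = 3.88e-07).

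Fibrillar genes rose for 7 of 10. Col1a2 was at 1.93, 2.10, 2.94 and 2.08 on slide 3 and at -0.83, -0.69, -1.12 and -1.46 on slide 4. The sets were well separated, by 3.29 ± 0.24 (adjusted p = 0.000121), or 9.74-fold, and the passaged cultures differed by -0.03. Col5a2 was not well above background on slide 4 and was at least 7.2-fold higher on slide 3. Col3a1 and Col1a1, each detected in 2 of 4 cultures of slide 4, differed by 3.43 ± 0.32 and 3.09 ± 0.36. Col4a1 was at -1.14, -0.70, -0.06 and -0.92 on slide 3 and at -3.54, -3.68, -4.35 and -4.12 on slide 4, a difference of 3.22 ± 0.25 (adjusted p = 0.000141). Col4a2 differed by 2.59 ± 0.26 (adjusted p = 0.00039), and by -0.06 in the passaged cultures. All 3 type VI genes tested rose, among them Col6a1 with 2.67 ± 0.25, and Col6a3 was at least 3.87-fold higher. Col8a1, a short-chain collagen of vessel and corneal basement membranes, was at least 3.22-fold higher.

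Of the genes that rose in primary spheres against the ganglion, Col4a3 passed the test between slides and the other 4 did not. Col9a1 did not pass the test (-0.31 ± 0.13, adjusted p = 0.162), nor did Col7a1 (-0.05 ± 0.12), Col2a1 (-0.36 ± 0.12) or Col4a6 (0.27 ± 0.12). Col9a2 also missed it (0.02 ± 0.11). Col4a3 was at least 1.26-fold lower on slide 3 (adjusted p = 0.00204), and Col20a1, a fibril-associated collagen, fell by 0.38 (adjusted p = 0.0388). The Col20a1 call was lost in 9 of 15 other settings, among them normexp correction and leaving out most single cultures. A second Col20a1 probe did not pass the test (-0.12, adjusted p = 0.602). In the passaged cultures Col20a1 had the widest slide difference of the collagens, 1.14, in the other direction. Among the 27 collagens detected throughout slide 3, culture 3 was highest for 19 and lowest for 0.

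Glial markers rose on slide 3 for 8 of 10 genes, with a median difference of 2.58, or 2.05 with bounds. Over all genes tested, 8.34% rose and 4.49% fell. Their mean log2 level was -2.29, -1.98, -1.35 and -2.01 in cultures 1 to 4 on slide 3, highest in culture 3, and -3.66, -3.76, -3.84 and -3.62 in cultures 5 to 8 on slide 4. Fibroblast markers rose for 2 of 7, with Fap at 3.65 and Thy1 at 0.65, and for 4 of 7 at an unadjusted p under 0.05. Endothelial markers rose for 1 of 5, as did smooth muscle and pericyte markers, each with 3 of 5 higher at an unadjusted p under 0.05. Macrophage markers rose for 1 of 2. Neuron markers rose for 0 of 10 by limma, with 1 higher and 1 lower at an unadjusted p under 0.05. The unadjusted counts of markers have no share of all genes beside them. Serpinh1 differed by 3.97 ± 0.29, at 0.11 ± 0.60 on slide 3 against -3.86 ± 0.33 on slide 4 (SD, n = 4 each). Breakdown genes and inhibitors rose for 5 of 6, crosslinking genes for 6 of 11, other basement membrane genes for 5 of 14 with Nid1 at 4.61 ± 0.35, and receptor genes for 2 of 6, Itga1 by 1.28 among them. Of 19 folding genes, 2 rose and 1 fell. The part of these cell types in the collagen split was not tested.

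**Figure D3:**
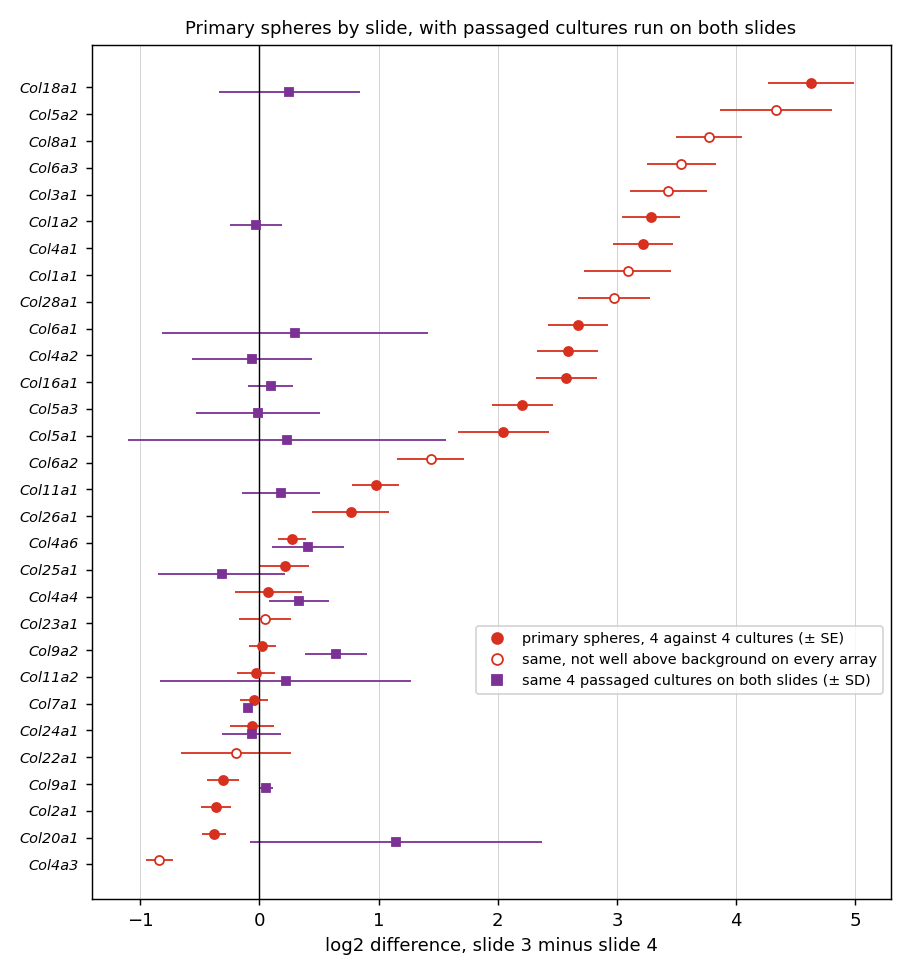
Difference of each collagen between slide 3 and slide 4 on the log2 scale, for 4 against 4 primary cultures (circles, ± SE, open where a probe was not well above background on every array) and for the same 4 passaged cultures run on both slides (squares, mean ± SD). Primary cultures extend to 4.63 for Col18a1. The means of the passaged cultures, shown for the 17 collagens measurable there, lie between -0.32 and 1.14.

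The last comparison set passaged spheres against primary spheres. Few collagens passed the test, among them Col4a1, which was below background after 5 passages, and Col9a1. Of 30 genes tested, 6 fell and 0 rose, where 6.66% of 14138 genes fell and 5.2% rose. At an unadjusted p under 0.05 limma gave 15 lower and 0 higher. The share of all genes at that limit was not counted, so these numbers have no background beside them. The median was -1.13 for collagens, -0.30 with bounds, and 0.01 for all genes. The groups did not overlap for 5 collagens and for 9.2% of all genes.

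Col9a1 was at -0.16, -0.24, -0.86 and -0.73 in the 4 passaged cultures and at 0.69, 1.25 and 1.501 in primary spheres. Every passaged culture was below every primary culture, and the difference was -1.74 ± 0.16 (n = 4 and 8, adjusted p = 0.00015), or 3.35-fold lower. It was -1.56 on slide 3 and -1.93 on slide 4. The second Col9a1 probe was again too dim to be tested. Col2a1, the other cartilage chain, was at -4.67, -4.84, -5.69 and -5.64 in passaged spheres against -4.64, -4.27 and -3.74 in primary spheres, with a difference of -0.98 ± 0.21 (adjusted p = 0.0124). It was well above background in 1 of 8 passaged arrays, and the call was lost with slide as a block (adjusted p = 0.0889), with the replicate block (0.0852), within slide 3 (0.338) and with normexp correction (0.835). Col9a2 (-0.20, 95% interval -0.50 to 0.09) and Col7a1 (-0.30, -0.54 to -0.07, adjusted p = 0.0884) were not called.

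Col4a1 was at -6.29, -6.02, -6.17 and -5.72 in passaged spheres, on no array well above background, against -4.35, -2.34 and -0.06 in primary spheres. It was at least 4.87-fold lower (adjusted p = 0.0153). Col4a2 was at -4.35, -4.10, -5.23 and -3.33 in passaged spheres against -3.89, -2.65 and -0.37 in primary spheres, which overlapped, and was not called (-1.85 ± 0.71, adjusted p = 0.108). Col5a3, a type V chain described in adipose tissue and nerve, was at -3.35, -3.72, -4.54 and -3.35 in passaged spheres against -2.41, -0.97 and 0.79 in primary spheres, with no overlap and a difference of -2.70 ± 0.61 (adjusted p = 0.0162). Col26a1, above background in 1 of 4 passaged cultures, fell by 1.23 (adjusted p = 0.0276). The Col26a1 call was lost with normexp correction (adjusted p = 0.241) and without passaged culture 2 (0.085) or 4 (0.0687). Col4a3 also passed the test as lower (adjusted p = 0.0165), but it was above background on no passaged array and in 4 of 8 primary cultures, and its signals give no bound on the size. Col4a6 (0.17, 95% interval -0.09 to 0.44) and Col4a4 (0.07, -0.41 to 0.55) were detected in all passaged cultures and were not called.

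The counts depended on which primary cultures served as the baseline, and with normexp correction 1 collagen fell. Within slide 3, 15 collagens fell, and within slide 4, 7 fell. These counts come from separate fits and stand without the share of all genes called in each. Their contrast may therefore not be particular to collagens. Col8a1 passed as higher within slide 4 with no array of either group above background, so both sides were background readings. With slide as a block 9 fell, among them Col1a2 (adjusted p = 0.0364), Col18a1 (0.0203), Col16a1 (0.0204) and Col7a1 (0.0448), which did not pass without it, and 15.5% of all genes were called. Col1a2 lay at -0.76, -2.61, -1.65 and -1.93 in passaged spheres, and differed from all primary cultures by -2.36 (adjusted p = 0.0959), from those of slide 3 by -3.999 (adjusted p = 0.000894) and from those of slide 4 by -0.71 (adjusted p = 0.216). Col18a1 lay at -4.09, -1.34, -4.87 and -3.48 in passaged spheres, and differed by -3.87 from all primary cultures (adjusted p = 0.0675), by -6.19 from those of slide 3 (adjusted p = 0.00168) and by -1.56 from those of slide 4 (adjusted p = 0.177). Col9a1, Col4a1 and Col5a3 fell against either set. With normexp correction, however, Col4a1 (-1.20, adjusted p = 0.121) and Col5a3 (-1.38, adjusted p = 0.0524) were no longer called.

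Of the pathway genes, 2 of 19 folding genes fell, Serpinh1 at least 6.62-fold and Fkbp14 by 0.78. Crosslinking genes fell for 2 of 11 and rose for 1, Pcolce2, an enhancer of procollagen processing, by 1.25. Receptor genes fell for 1 of 6, and breakdown genes for 0 of 6 by limma, 2 of them at an unadjusted p under 0.05. Among other basement membrane genes 2 of 14 fell, with Nid1, the nidogen that links laminin to type IV collagen, at least 12.3-fold lower, and 2 rose, Lama1 by 1.20 and Lamb1 by 1.19. Glial markers fell for 3 of 10, Fabp7 at least 27-fold, and 7 of 12 were on no passaged culture well above background. Smooth muscle and pericyte markers fell for 3 of 5, with 8 of 10 above background in no passaged culture. Sympathetic neuron markers rose for 4 of 10 and fell for 1. Fibroblast markers fell for 1 of 7 and rose for 1, with a summed relative signal of 6.59 to 11.51 in passaged against 7.81 to 15.7 in primary spheres. The part of these cell types in the collagen differences was not tested.

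**Figure D4:**
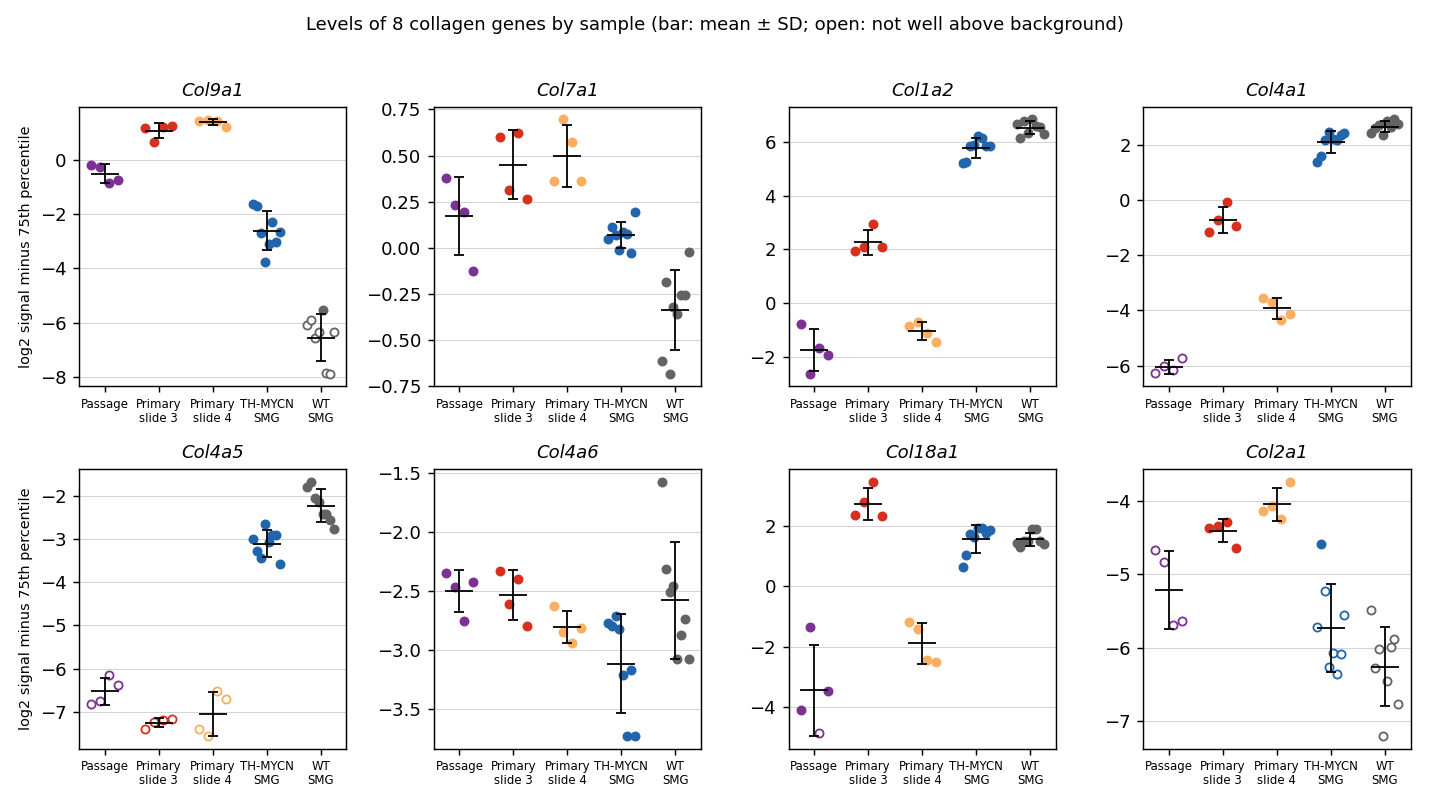
Levels of 8 collagen genes (log2 signal relative to the array's 75th percentile) in every sample of the passaged spheres, the primary spheres of slides 3 and 4, TH-MYCN SMG and wild-type SMG, with the mean and SD of each set and open circles where the probe was not well above background. Col9a1 reaches 1.501 in primary spheres and at most -5.52 in wild-type SMG, Col18a1 separates the 2 sets of primary cultures, and Col4a5 is below background in every sphere culture.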

How the data were processed

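RNA of 4 passaged sphere cultures, 8 primary sphere cultures, 8 TH-MYCN SMG and 8 wild-type SMG was read on Agilent one-colour mouse arrays. RNA input was 40 or 200 ng, per the labels' protocols, with the amount per sample not given in the sources used here. Per the file headers, Agilent Feature Extraction 11.5.1.1 produced the deposited processed intensity, which is background-subtracted and spatially detrended, with no scaling across arrays. The authors also deposited a table of log2 values, and 99.9% of them came within 0.05 of the levels used here after a shift common to all values of a probe. This settles their scale and direction, while the samples they were centred on are unknown. Its column medians ranged over 0.147 to 0.506 for passaged spheres, -0.079 to 0.074 for primary spheres, -0.393 to -0.113 for TH-MYCN SMG and -0.483 to -0.017 for wild-type SMG.

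The analysis used R 4.3.3 and limma 3.58.1. Control spots and 109 to 211 outlier spots per array were left out, 0 spots were saturated, and repeated spots were averaged per probe. Levels were log2 processed intensity over the array's 75th percentile. RefSeq's GRCm38.p6 gene table named 27235 of 55681 probes by accession without version. Both arrays of a passaged culture were averaged, and counted as above background where both were. Each gene was represented by its brightest probe on average among those well above background in at least 4 samples, and was tested where that held in at least 4 samples of the comparison. Pairs of groups were compared by two-sided tests in limma (lmFit, eBayes), adjusted by Benjamini-Hochberg over all genes tested. Counts at an unadjusted p under 0.05 were made for the lists and not over all genes. The number of samples limits the precision. Alternatives were the authors' log2 table, median and quantile scaling, normexp correction (offset 50), no filter on dim probes, the brightest probe per comparison, all 4 groups in one fit, replicate and slide blocks, single slides and leaving out each replicate.

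The members, their classes, the lists of collagen pathway genes and cell markers, the gene pairs and the promoter motifs were chosen with earlier results of these data known. The setting with the median gene at no difference, the passaged comparison against single slides of primary spheres and the check of passaged cultures on both slides were added after seeing the data. Any collagen could be named, and of other lists up to 3 called genes in each direction with the largest differences whose probe passed background on every array of the group with the higher mean. The fits were tested on simulated data.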

Additional observations from a re-analysis of the deposited data

Results flagged for a closer look

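Of 94 sets of collagen values in groups of 4 to 10 samples, 2 had a sample far from the others, where chance gives about 1 in 20. Col4a4 was at -3.363 in passaged culture 4, high against -3.78 to -3.709 in the other 3 passaged cultures. Col9a1 was at 0.685 in primary culture 2, low against 1.205 to 1.501 in the other 7 primary cultures, and still above every TH-MYCN SMG.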

How the results depend on the processing

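For TH-MYCN against wild-type SMG, setting the median gene to no difference gave 6 collagens higher, 16 lower and a median of -0.40. One fit of all 4 groups gave 12 lower. Leaving out single samples gave 2 to 4 higher (4 without wild-type SMG 6), 23 to 26 lower and medians of -0.68 to -0.56. For primary spheres against TH-MYCN SMG, normexp gave 8 higher and a median of -0.89, recentring on the median gene 3 higher, no filter on dim probes a median of -2.50 and slide 3 alone -2.54. Under normexp Col10a1 (0.63), Col11a2 (0.16), Col20a1 (0.042), Col22a1 (0.28), Col6a4 (0.27) and Col8a2 (0.056) changed sign, and Col18a1 did so with slide 3 alone (1.17). Leaving out samples gave 5 to 6 higher, 29 to 30 lower and medians of -3.23 to -2.98. For passaged against primary spheres, the number lower was 1 with normexp (median -0.20), 11 with all 4 groups, 15 within slide 3 and 18 against its primary cultures alone. Within slide 4 there was 1 higher (median -0.52, Col8a1 0.72), as against its cultures alone (median -0.30, Col8a1 0.83), both between background readings, and 5 were higher with no filter. Leaving out samples gave 0 higher, 4 to 7 lower and medians of -1.31 to -0.997. For slide 3 against slide 4, normexp gave 0 lower and a median of 0.32, no filter 1 lower and 0.56, and the brightest probe a median of 0.98. Leaving out cultures gave 16 higher, 1 to 2 lower (1 without any of cultures 1, 2, 4, 5, 6, 7 or 8) and medians of 1.01 to 1.34. Without any of those cultures Col20a1 was no longer called. Whether replicate numbers pair the samples was not settled, with same-number correlations of -0.07 to 0.37. Some exceeded the best correlation with another number, as for ganglion replicate 7 (0.372 against 0.271). Others did not, as for ganglion replicate 5 (0.166 against 0.44). With the replicate block 16 collagens were lower in passaged than in primary spheres, a fit that rests on primary cultures 1 to 4, all on slide 3, since only these share numbers with passaged cultures, and the other 2 comparisons with shared numbers stayed within 1.5 times of their counts. The cause of these shifts was not tested. Where no share of all genes stands beside a count, it describes its setting and is no result about collagens in particular. Dim signal limits the sphere values.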
